A study of Mus musculus with 9 samples.

Results

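A surface protease system of 10 genes was followed in whole mouse uterus: the trypsin-like proteases St14, Prss8, Tmprss2, Tmprss4, Tmprss11d, Prss28 and Prss29, the inhibitors Spint1 and Spint2, and F2rl1, the gene of protease-activated receptor 2 (PAR2). They are 10 of the 35934 genes measured, were chosen by name, and were all found and all tested. Each gene value was FPKM (fragments per kilobase of transcript, scaled to the mapped fragments of the library) summed over annotated transcripts, a unit that takes account of length, so that levels can be set beside each other between genes. The uteri came from immature C57BL/6 females, 25 days old in the sample labels and 21 days old in the design text, which was not settled. All animals, controls included, had received a single dose of 1 mg progesterone and 10 mg/kg per day of β-estradiol over 3 days. In the arrested group the horns were then injected with 50 µl of medium pooled from 18 human embryos that had arrested, in the competent group with 50 µl of medium pooled from 9 developmentally competent human embryos, and in the control group with 50 µl of embryo culture medium that had held no embryo. Each group had 3 libraries made from 1 µg of total RNA. The time between injection and collection is not given in the sources used here.

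Matriptase (St14) and prostasin (Prss8) are trypsin-like proteases bound to the epithelial cell surface that can activate each other. They are held in check by the Kunitz-type inhibitors HAI-1 (Spint1) and HAI-2 (Spint2). PAR2 is a G protein-coupled receptor that is switched on when such a protease cuts its extracellular end and uncovers a tethered ligand, and the epithelial sodium channel ENaC is a further target of these enzymes. In rodents Prss28 and Prss29, also named implantation serine proteinases ISP1 and ISP2, are secreted by the uterine glands around implantation.

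Whether each library is a different animal is not stated in the labels, and the media were pooled. The p-values therefore measure only how these samples scatter, part of which may be technical. Depth in reads is unknown; the deposited coverage amounted to 1077 to 1972 Mb over annotated transcripts per library. Epithelium was present in all libraries: the summed level of 14 epithelial markers was 2499 to 3601 FPKM in arrested libraries, 3255 to 3641 FPKM in competent libraries and 3004 to 3660 FPKM in control libraries, and 0 of the 14 passed the test between arrested and competent. The gland marker Foxa2 was at 0 to 2.39 FPKM. A pair of arrested libraries stood apart from the rest. Arrested library 3 had a score of 90.7 on the first principal component of all genes tested, against -25.1 to 4.87 in the other 8 libraries. Arrested library 2 had 1360 FPKM in 8 adipocyte markers, against at most 170 FPKM elsewhere. In bulk tissue, fewer cells of a type and less RNA per cell cannot be told apart.

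No member passed the threshold of 0.05 in any comparison (limma on log2(FPKM + 1), Benjamini-Hochberg adjustment over 13333 genes). Between arrested and competent this was 0 of 10 members, where 0.135% of all genes tested were called; between arrested and control 0 of 10, where 0.0525% were called; and between competent and control 0 of 10, where 0.045% were called. At an unadjusted p under 0.05 the members counted 1, Tmprss2, between arrested and competent, against 10.9% of all genes. They counted 0 between arrested and control, against 5.27% of all genes, and 0 between competent and control, against 5.18%. The median difference of the members was 0.09 on the log2 scale for arrested minus competent, 0.12 for arrested minus control and 0.08 for competent minus control, beside -0.01, -0.02 and -0.01 over all genes. The comparisons share groups and are not independent of each other. The count at an unadjusted p under 0.05 between arrested and competent was 5 of 10 without arrested library 3 (Prss29, Spint2, St14, Tmprss2 and Tmprss4), where 12.6% of all genes did so. Of these 5, Tmprss2 was higher in arrested than in competent libraries and the others were lower. The count was 3 of 10 without arrested library 2 (F2rl1, Spint1 and Tmprss2), where 12.4% did so, and in both cases 0 members passed the adjusted threshold. These were the highest counts among the fits that left out 1 library, where the others gave 0 to 2 of 10. Arrested library 3 held the highest value of 7 of the 10 members.

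**Figure D1:**
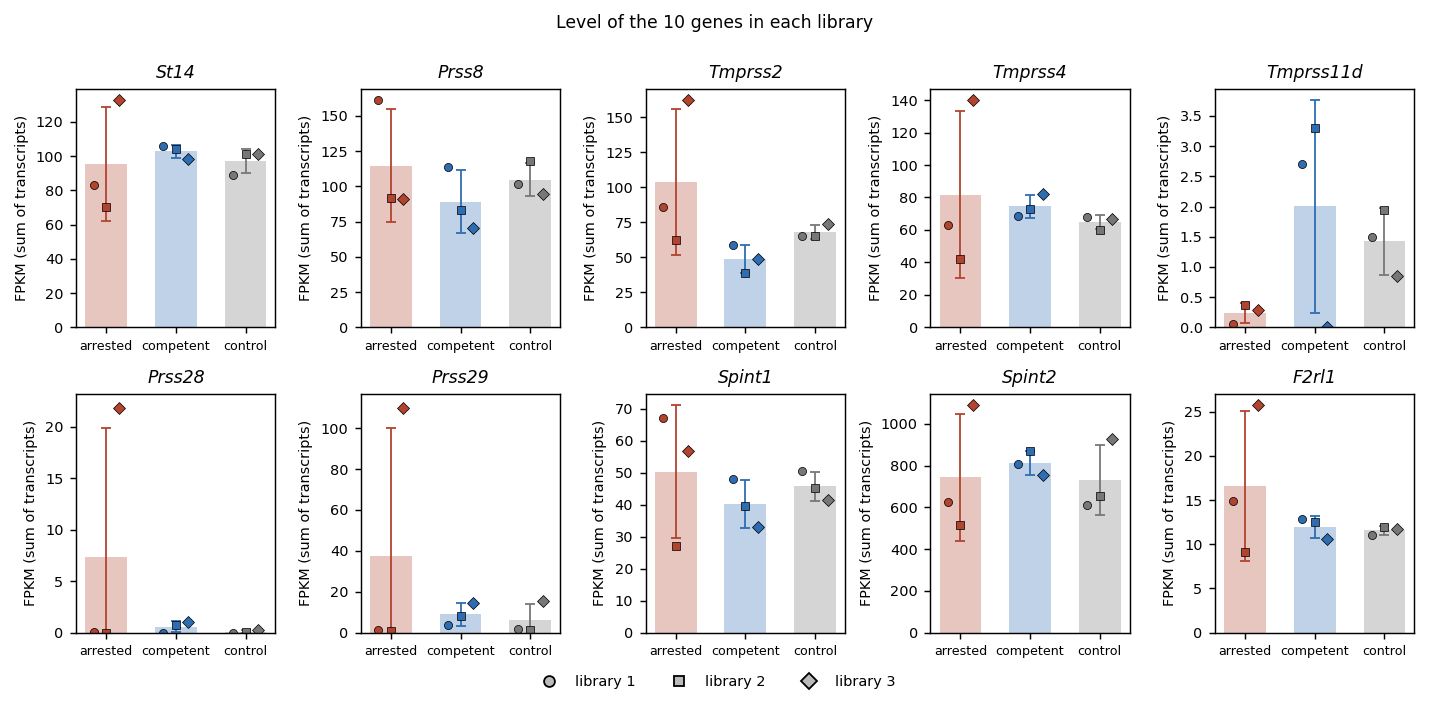
FPKM of each of the 10 genes (vertical axis, linear, from 0) in arrested, competent and control libraries; points are libraries 1 to 3, bars are group means and whiskers are SD. Arrested library 3 holds the highest value of 7 of the 10 genes, and Prss28 and Prss29 reach 21.8 and 110 FPKM there.

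The members differed in level by orders of magnitude, and their order was much the same in the 3 groups. Spint2 was the highest member in all 9 libraries and made up 56.8 to 70.5% of the summed FPKM of the members. That share depends on the gene value used. Mean coverage over the exons of Spint2, put on the FPKM scale, was 284 to 612, where its summed FPKM was 514 to 1090. St14, Prss8, Tmprss2 and Tmprss4 lay between 39.2 and 162 FPKM and Spint1 between 27.0 and 67.1 FPKM. F2rl1 lay between 9.08 and 25.7 FPKM, and Tmprss11d did not exceed 3.30 FPKM. The library with the highest value was arrested library 3 for 7 members, arrested library 1 for Prss8 and Spint1, and competent library 2 for Tmprss11d. By summed FPKM, arrested library 2 held the lowest value of 6 members, and for Prss28 it shared the value of 0 with competent library 1 and control library 1. For F2rl1, 1 of the 6, it was not the lowest by exon coverage. The epithelial marker sum of 2499 FPKM was also that of arrested library 2, and its part in these low values was not tested.

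F2rl1 (ENSMUSG00000021678, chr13:96281687-96295195, minus strand, mm9), the receptor, has a single annotated transcript. It had 14.9, 9.08 and 25.7 FPKM in arrested libraries, 12.9, 12.6 and 10.6 FPKM in competent libraries and 11.04, 11.998 and 11.8 FPKM in control libraries. By summed FPKM the arrested libraries held the lowest and the highest of the 9 and enclosed all values of the other groups. The competent and control libraries lay close together. Mean coverage over its exons, put on the FPKM scale, was 11.1 in arrested library 2. That lay above competent library 3 at 10.6 and control library 1 at 11.04, so the arrested libraries did not hold the lowest value by coverage. The difference was 0.33 ± 0.31 (SE) for arrested minus competent, with a 95% interval of -0.40 to 1.05 (limma adjusted p = 0.763), and 0.37 ± 0.31 for arrested minus control (limma adjusted p = 0.914). Competent minus control was 0.04 ± 0.31, with a 95% interval of -0.69 to 0.76. Without arrested library 3, arrested minus competent was -0.03, and without arrested library 2 it was 0.67 (limma adjusted p = 0.317). The order of the group means, 16.6 ± 8.45 in arrested, 11.99 ± 1.25 in competent and 11.6 ± 0.50 FPKM in control libraries (SD, n = 3 each), therefore held no pair of neighbours that differed beyond their spread.

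Among the other receptors of the family, F2r, the thrombin receptor PAR1, had 3.897, 6.72 and 5.497 FPKM in arrested, 4.04, 3.51 and 2.91 FPKM in competent and 5.32, 3.79 and 9.00 FPKM in control libraries. F2rl2 did not exceed 0.16 FPKM and F2rl3 did not exceed 0.42 FPKM in any library. PAR2 was thus the receptor of the family with the highest level in every library. Of 18 tested receptors, G proteins and other transducers, F2rl1 included, 0 passed the threshold in each comparison. Those of smallest p were Itpr2, an inositol trisphosphate receptor of the endoplasmic reticulum, at 1.21 ± 0.35 for arrested minus competent (limma adjusted p = 0.327), Gnai1, an inhibitory G protein subunit, at 0.76 ± 0.34, and Trpv4, a calcium-permeable channel, at 0.69 ± 0.32.

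St14 (ENSMUSG00000031995, chr9:30896987-30939438, minus strand), which encodes matriptase, had all of its FPKM in 1 protein-coding transcript. It had 83.1, 70.1 and 133 FPKM in arrested libraries, 106, 104 and 98.1 FPKM in competent libraries and 89.2, 102 and 101 FPKM in control libraries. Arrested libraries 1 and 2 lay below all 6 others and arrested library 3 lay above them. The difference was -0.16 ± 0.22 for arrested minus competent, with a 95% interval of -0.66 to 0.34 (limma adjusted p = 0.844), and 0.08 ± 0.22 for competent minus control. Without arrested library 3 it was -0.42 ± 0.11 for arrested minus competent (limma adjusted p = 0.222).

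Prss8 (ENSMUSG00000030800, chr7:135069239-135073627, minus strand), which encodes the GPI-anchored prostasin, had 161, 91.9 and 91.1 FPKM in arrested, 114, 83.1 and 70.3 FPKM in competent and 102, 118 and 94.5 FPKM in control libraries. The groups overlapped, and the highest value was that of arrested library 1. Arrested minus competent was 0.34 ± 0.26, with a 95% interval of -0.26 to 0.94 (limma adjusted p = 0.687), and competent minus control was -0.25 ± 0.26. The transcript Prss8-201 was above 0 in arrested library 1 only, with 10.5% of the gene value there and confidence bounds by the authors of 14.9 and 19.1 FPKM, while Prss8-203 and Prss8-202 were above 0 in all 9 libraries. Prss8 shares up to 108 exonic bases with Myst1 on the opposite strand, and whether counting used strand is not given in the sources used here. Myst1 was listed at 12.6 FPKM in arrested library 2 and 10.3 FPKM in arrested library 3, and at 0 in the other 7 libraries.

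Tmprss2 (ENSMUSG00000000385, chr16:97786291-97832802, minus strand), a transmembrane protease of prostate and other epithelia, had the largest difference between arrested and competent among the members above 5 FPKM in all libraries. It had 85.9, 62.5 and 162 FPKM in arrested libraries, 59.0, 39.2 and 48.9 FPKM in competent libraries and 65.1, 65.0 and 74.0 FPKM in control libraries. All arrested libraries lay above all competent libraries, and all competent libraries lay below all control libraries, whereas arrested and control overlapped. Arrested minus competent was 0.97 ± 0.32, with a 95% interval of 0.23 to 1.71, or 1.96-fold of FPKM + 1 (limma unadjusted p = 0.0165, adjusted p = 0.383). Arrested minus control was 0.49 ± 0.32 (limma adjusted p = 0.904) and competent minus control -0.48 ± 0.32 (limma adjusted p = 0.954). The difference between arrested and competent was 0.59 without arrested library 3 and 1.27 without arrested library 2, and its adjusted p ranged from 0.178 to 0.693 over 22 alternative settings.

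Few members had groups that did not overlap by summed FPKM, and their share lay near that of all genes, as far as 10 genes can show. Between arrested and competent, Tmprss2 was the 1 member of 10 with all arrested libraries higher, where 7.73% of all genes did so, and 0 members were lower, where 8.75% did so. Between arrested and control, 0 members were higher, against 3.49% of all genes, and 1, Tmprss11d, was lower, against 5.36%. Between competent and control, 1 member, Tmprss4, was higher, against 6.72% of all genes, and 1, Tmprss2, was lower, against 8.13%.

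Tmprss4 (ENSMUSG00000032091, chr9:44980809-45012175, minus strand), a transmembrane protease related to Tmprss2, had 63.2, 42.1 and 140 FPKM in arrested, 68.4, 73.1 and 82.4 FPKM in competent and 68.2, 59.9 and 67.0 FPKM in control libraries. Competent libraries lay above control libraries by a narrow margin, and the arrested libraries held the lowest and the highest value of the 9. By exon coverage the competent libraries, at 48.9, 44.0 and 57.3, overlapped the control libraries, at 45.9, 42.7 and 47.0. Competent minus control was 0.19 ± 0.37 (limma adjusted p = 0.998) and arrested minus competent -0.05 ± 0.37, with a 95% interval of -0.90 to 0.81. Without arrested library 3, arrested minus competent was -0.52 (limma adjusted p = 0.318). Its largest transcript was Tmprss4-003, annotated as a processed transcript without a coding frame, with 51.1 to 69.9% of the gene's FPKM in a library. The protein-coding Tmprss4-001 was at 0 in competent library 2 and at 14.5 to 54.5 FPKM in the others. The gene overlaps Gm17099 on the opposite strand, which was listed at 0 in all libraries.

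Tmprss11d (ENSMUSG00000061259, chr5:86731242-86802445, minus strand) encodes a protease named after the human airway trypsin-like enzyme. It had the lowest mean of the members over the 9 libraries, although Prss28 was the lowest member in 6 of them. It had 0.0518, 0.378 and 0.282 FPKM in arrested libraries, 2.71, 3.30 and 0 FPKM in competent libraries and 1.497, 1.94 and 0.844 FPKM in control libraries. All arrested libraries lay below all control libraries and below competent libraries 1 and 2. Arrested minus competent was -1.03 ± 0.56 (limma adjusted p = 0.551) and arrested minus control -0.96 ± 0.56 (limma adjusted p = 0.904).

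The value of 0 for Tmprss11d in competent library 3 stood beside a transcript of 2.97 FPKM that the authors' program had assembled at this gene in that library, and which the annotated sum leaves out. Mean coverage over the exons of the gene, put on the FPKM scale, was 0.0503, 0.367 and 0.274 in arrested libraries, 2.63, 3.21 and 2.88 in competent libraries and 1.45, 1.89 and 0.820 in control libraries. By exon coverage no group overlapped another, with arrested lowest, control between and competent highest. On this measure Tmprss11d was lower in arrested than in competent libraries, with a difference of -1.67 ± 0.22 (limma adjusted p = 0.0348) and was the 1 member of 10 past the threshold, where 0.43% of 14177 genes were called. With assembled transcripts added to the sum the difference was -1.70 ± 0.26 (limma adjusted p = 0.0656), and over 21 alternative settings the adjusted p ranged from 0.0348 to 0.806. Of the 50-base stretches in the protein-coding transcripts of Tmprss11d, untranslated parts included, 0.291% also occur in another gene; for the other members the share was 0%.

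**Figure D2:**
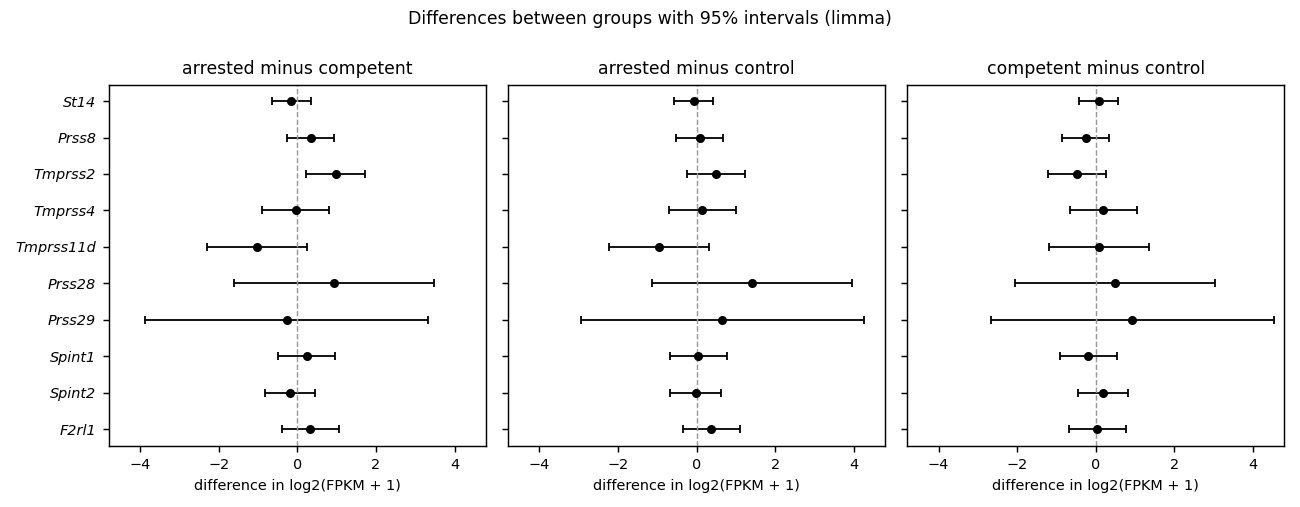
Difference in log2(FPKM + 1) between groups (horizontal axis) for each gene, with points for the fitted difference and whiskers for the 95% interval of the limma fit. For Tmprss2, arrested minus competent, the interval of 0.23 to 1.71 lies above 0, and the intervals of Prss28 and Prss29 are the widest.

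Prss28 and Prss29 are neighbours on chromosome 17, 6777 bases apart on the plus strand, and their coding sequences of 825 and 840 bases are 61.7% identical. Since both were highest in the same library, the 250 bases before each gene are shown, from RefSeq on GRCm38.p6, with the 6 letters TATAAA in capitals. The stretches are chr17:25308396-25308645 before Prss28 and chr17:25318404-25318653 before Prss29.

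Prss28: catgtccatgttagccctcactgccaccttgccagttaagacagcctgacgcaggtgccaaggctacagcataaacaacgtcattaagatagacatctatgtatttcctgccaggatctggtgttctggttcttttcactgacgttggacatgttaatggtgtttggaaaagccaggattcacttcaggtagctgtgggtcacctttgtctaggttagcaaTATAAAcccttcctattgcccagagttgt

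Prss29: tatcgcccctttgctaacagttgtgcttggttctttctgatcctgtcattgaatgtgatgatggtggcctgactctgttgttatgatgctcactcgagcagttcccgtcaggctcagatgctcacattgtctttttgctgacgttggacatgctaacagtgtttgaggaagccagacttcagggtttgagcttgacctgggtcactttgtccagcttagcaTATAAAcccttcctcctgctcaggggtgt

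The motif TATAAA, the core of a TATA box, begins 29 bases before the start of each gene, and 12.4% of 32851 promoters of that length hold it on either strand. The upstream stretches are 62.5% identical over their whole length and 72.8% identical over the last 100 bases, and their longest shared run is CTGACGTTGGACATG, which begins 112 bases before Prss28 and 113 bases before Prss29. The letters TGACG, a half-site of the cyclic AMP response element, occur in it, 3 times in all before Prss28 and 2 times before Prss29, and in 17.8% of promoters. The estrogen receptor half-site GGTCA occurs 1 and 2 times and is in 35.2% of promoters, and the progesterone receptor half-site TGTTCT occurs 1 and 0 times and is in 16.1%. Both strands were searched, matches of different motifs did not overlap, and these letter matches describe the sequence and nothing more.

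Prss28 (ENSMUSG00000024171, chr17:25445591-25448821, plus strand) had 0.0664, 0 and 21.8 FPKM in arrested libraries, 0, 0.739 and 1.05 FPKM in competent libraries and 0, 0.0682 and 0.224 FPKM in control libraries. The authors' confidence bounds for arrested library 3 were 19.2 and 24.4 FPKM, and a further 13.5 FPKM stood there in an assembled transcript. Prss28 was thus near 0 in 8 libraries and high in 1. Prss29 (ENSMUSG00000034039, chr17:25455599-25459626, plus strand) had 1.14, 0.679 and 110 FPKM in arrested, 3.83, 8.34 and 14.6 FPKM in competent and 1.71, 1.31 and 15.3 FPKM in control libraries. Its other arrested libraries were the lowest of the 9, so that the group held both ends of the range.

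For Prss28, arrested minus competent was 0.92 ± 1.11 (limma adjusted p = 0.814), and -0.56 without arrested library 3. For Prss29 it was -0.27 ± 1.57, with a 95% interval of -3.88 to 3.33 (limma adjusted p = 0.977), and -2.23 ± 0.91 without arrested library 3 (limma adjusted p = 0.380). Competent minus control was 0.48 ± 1.11 for Prss28 and 0.93 ± 1.57 for Prss29. The direction of Prss28 between arrested and competent thus turned without arrested library 3. That of Prss29 stayed negative without it, and turned to 0.62 without arrested library 1, 0.79 without arrested library 2 and 0.13 without competent library 3. In arrested library 3 sums of cell type markers differed as well. The sum of 12 luminal and glandular markers was 2412 FPKM there, and 2974 and 4437 FPKM in the other arrested libraries. It was 8817 to 9394 FPKM in competent and 5584 to 6593 FPKM in control libraries. Of the 10 of these markers tested, 2 passed the threshold between arrested and competent. Single markers in this sum went both ways. In arrested library 3 Lcn2 was lowest, at 624 FPKM against 872 to 4050 FPKM elsewhere. Calb1 was highest in that library, at 166 FPKM against 14.3 to 55.2 FPKM elsewhere, and Prom1 lay above the other arrested and the control libraries. The sum of 8 mast cell markers was 162 FPKM there, of which the histidine decarboxylase gene Hdc made up 155 FPKM, against 20.0 to 48.2 FPKM in the other 8 libraries. Of the other 7, Kit was also highest in that library, at 3.27 FPKM against 0.311 to 1.95 FPKM elsewhere. Tpsb2, Cma1, Mcpt4 and Cpa3 lay there at 0.363 to 1.12 FPKM, within or below their values in the other 8 libraries. Fcer1a and Ms4a2 were at 0 there, as Fcer1a was in arrested library 1 and control library 3 and Ms4a2 in control library 2. The part of these differences in the levels of Prss28 and Prss29 was not tested.

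Spint1 (ENSMUSG00000027315, chr2:119063098-119075263, plus strand), the gene of HAI-1, had 67.1, 27.0 and 56.8 FPKM in arrested, 48.1, 39.7 and 33.05 FPKM in competent and 50.7, 45.1 and 41.6 FPKM in control libraries. The arrested libraries held the lowest value and the highest pair. Arrested minus competent was 0.23 ± 0.32 (limma adjusted p = 0.844), with a 95% interval of -0.50 to 0.96, and 0.62 ± 0.19 without arrested library 2 (limma adjusted p = 0.263). The transcript Spint1-003 was at 0 in arrested library 3, where an assembled transcript of 15.1 FPKM stood, and at 10.96 to 24.4 FPKM in the other libraries.

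Spint2 (ENSMUSG00000074227, chr7:30041350-30066996, minus strand), the gene of HAI-2, had 628, 514 and 1090 FPKM in arrested libraries, 810, 872 and 756 FPKM in competent libraries and 612, 657 and 926 FPKM in control libraries. Arrested minus competent was -0.20 ± 0.28 (limma adjusted p = 0.845) and -0.51 ± 0.20 without arrested library 3 (limma adjusted p = 0.354). The groups overlapped in every comparison. Of 5 annotated transcripts only Spint2-202 and Spint2-203 were above 0, and Spint2-202 had 57.7 to 69.5% of the gene's FPKM in a library.

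**Figure D3:**
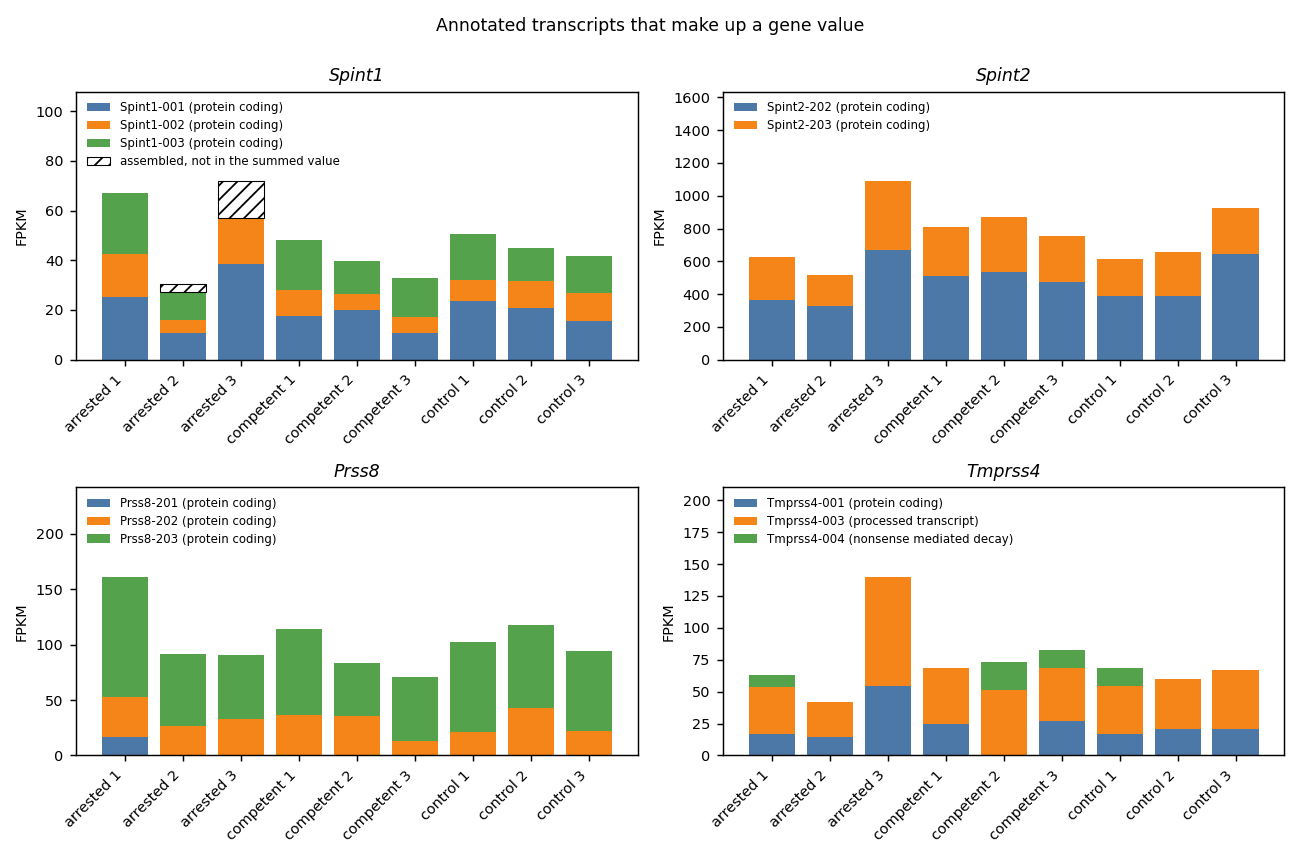
FPKM of the annotated transcripts that make up Spint1, Spint2, Prss8 and Tmprss4 (stacked bars) in each library, with assembled transcripts, which are not part of the gene value, hatched. Spint1-003 is absent from the bar of arrested library 3, where 15.1 FPKM are hatched.

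The summed RNA level of the 2 inhibitors exceeded that of St14 and Prss8 in every library. The sum of St14 and Prss8 was 0.195 to 0.351 times the sum of Spint1 and Spint2, with means of 0.282 ± 0.080 in arrested, 0.225 ± 0.027 in competent and 0.268 ± 0.058 in control libraries (SD, n = 3 each), which overlapped. Spint2 was 9.36 to 22.9 times Spint1. The ratios that hold Spint2 depend on the gene value used. The exon coverage of Spint2 on the FPKM scale was 284 to 612, where its summed FPKM was 514 to 1090. The ratio of Tmprss2 to St14, chosen after its values were seen and given without a test, was 1.03, 0.892 and 1.22 in arrested libraries, 0.559, 0.375 and 0.498 in competent libraries and 0.729, 0.641 and 0.734 in control libraries. These ratios did not overlap between any 2 groups, with arrested highest and competent lowest.

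**Figure D4:**
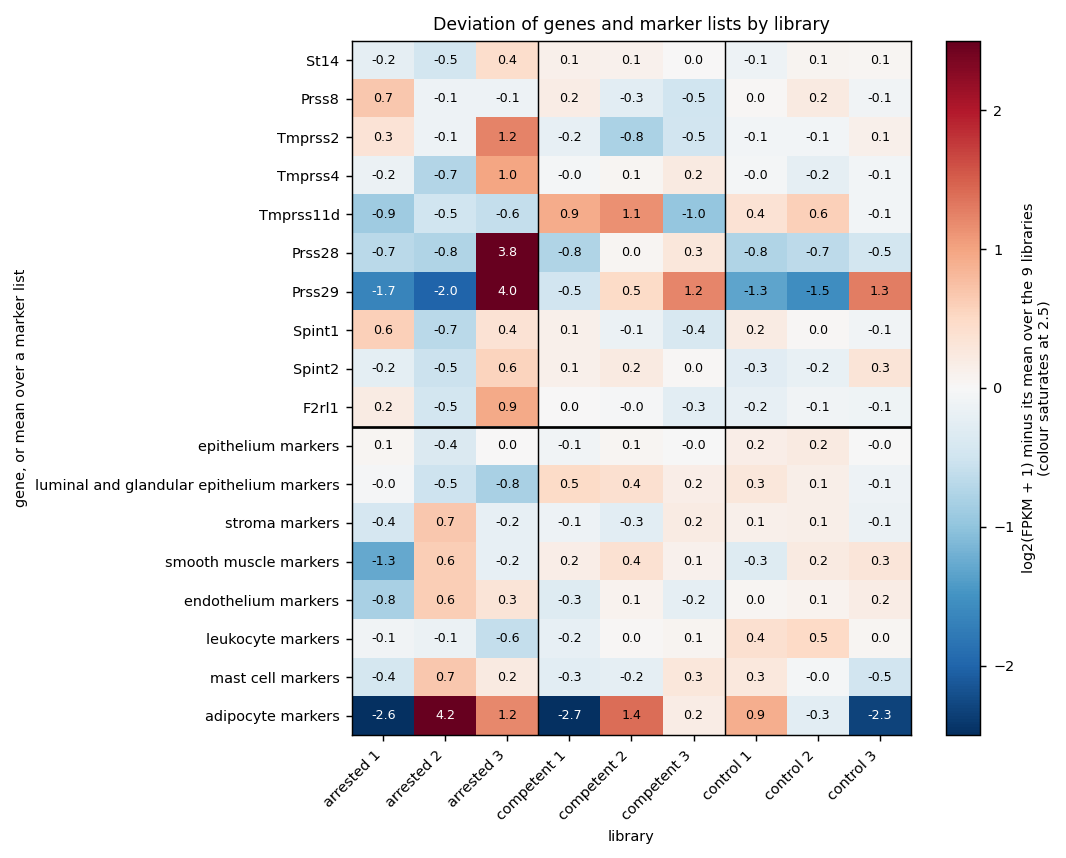
Deviation of log2(FPKM + 1) from its mean over the 9 libraries for each gene, and the mean deviation of each cell type marker list (rows), by library (columns), in colour and as printed values. Prss28 and Prss29 are raised in arrested library 3, and adipocyte markers in arrested library 2.

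The likeness of Prss28 to other genes depended on arrested library 3, and that of F2rl1 did so less. The genes most like F2rl1 over the 9 libraries by Pearson correlation of log2(FPKM + 1) were F3, the tissue factor gene (r = 0.954), Sec11a, a signal peptidase subunit (r = 0.953), and Wnt7b, a WNT ligand (r = 0.951); without arrested library 3 these values were 0.757, 0.835 and 0.783. For Prss28 they were Spp1, the osteopontin gene (r = 0.9754), Olfm1 (r = 0.965) and Nucb2 (r = 0.964), and 0.525, 0.206 and 0.375 without that library. Spp1 had 1396 FPKM in arrested library 3 and 16.4 to 29.5 FPKM in the other 8.

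For St14 and Spint2 the values were at least 0.890 without that library. St14 was most like Fam108c (r = 0.966), Tmbim6 (r = 0.952) and Uap1l1 (r = 0.933), with 0.939, 0.955 and 0.890 without arrested library 3. Spint2 was most like the laminin gene Lamb3 (r = 0.932), the lysosomal β-galactosidase gene Glb1 (r = 0.931) and Oas1g (r = 0.927), with 0.902, 0.965 and 0.915. These values describe the same 9 libraries, or 8 of them, and carry no test.

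Of 92 tested genes in 7 wider lists of proteases, inhibitors, receptors and substrates, members included, 1 passed the threshold between arrested and competent, where 0.135% of all genes did so. In the comparisons with control 0 passed, where 0.0525% of all genes did so for arrested and 0.045% for competent. The lists were drawn up with earlier results of these data known, so these counts are no test of them. The 1 called was Hgfac, the hepatocyte growth factor activator, a secreted protease that HAI-1 can inhibit. Hgfac had 17.8, 11.7 and 13.2 FPKM in arrested libraries, 56.5, 59.6 and 59.8 FPKM in competent libraries and 25.9, 24.04 and 47.0 FPKM in control libraries. No group overlapped another. Hgfac was lower in arrested than in competent libraries, with a difference of -1.99 ± 0.26 (limma adjusted p = 0.0482). The adjusted p was 0.205 with assembled transcripts added, 0.0538 by exon coverage, and 0.0531 to 0.210 without any 1 library other than control library 3, without which it was 0.0146. Its difference was -1.08 for arrested minus control (limma adjusted p = 0.776) and 0.90 for competent minus control (limma adjusted p = 0.866).

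**Figure D5:**
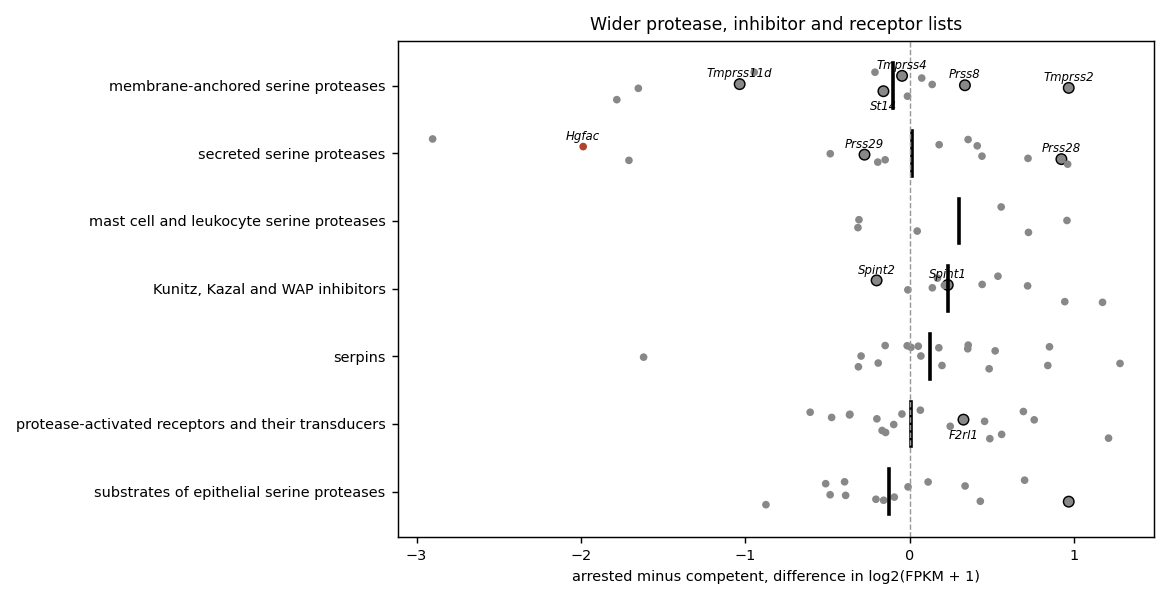
Arrested minus competent difference in log2(FPKM + 1) (horizontal axis) of each tested gene in 7 lists (rows); vertical bars are list medians, ringed points are the 10 members and the red point passed the threshold. Hgfac lies at -1.99 and Tmprss2 at 0.97.

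Membrane-anchored serine proteases had 12 tested of 31 measured, with 0 called in each comparison and medians of -0.10 for arrested minus competent, -0.11 for arrested minus control and 0.08 for competent minus control. Tmprss11g, a relative of Tmprss11d, had 0.512, 0.328 and 0.721 FPKM in arrested, 3.89, 4.97 and 3.82 FPKM in competent and 3.59, 4.01 and 0.657 FPKM in control libraries. All its arrested libraries lay below all competent ones, with a difference of -1.78 ± 0.42 (limma adjusted p = 0.260). Tmprss6, matriptase-2, known as a regulator of hepcidin in liver, differed by -1.65 ± 0.61 (limma adjusted p = 0.408).

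Secreted serine proteases had 14 tested of 38 measured, Hgfac being the 1 called, and medians of 0.02, 0.20 and 0.03 in the same order of comparisons. The 14 include Htra2, a mitochondrial protease gene, so the list is not of secreted proteases alone. Klk1, tissue kallikrein, which releases kinins, had 74.0, 38.7 and 54.04 FPKM in arrested libraries, 321, 130 and 135 FPKM in competent libraries and 157, 163 and 266 FPKM in control libraries. Its arrested libraries lay below all 6 others; arrested minus control was -1.80 ± 0.40 (limma adjusted p = 0.776) and arrested minus competent -1.71 ± 0.40 (limma adjusted p = 0.260). Prss36 differed by 2.15 ± 0.68 for arrested minus control (limma adjusted p = 0.904), with 1 control library at 0.

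Mast cell and leukocyte proteases had 6 tested of 14 measured and 0 called, with medians of 0.30, -0.14 and -0.11. The granzyme genes of cytotoxic lymphocytes differed for competent minus control by -1.35 ± 0.35 for Gzmb (limma adjusted p = 0.866), -1.07 ± 0.26 for Gzmc (limma adjusted p = 0.824) and -0.30 ± 0.72 for Gzma. Summed leukocyte markers were 50.6 to 79.1 FPKM in arrested, 82.3 to 95.5 FPKM in competent and 92.5 to 119 FPKM in control libraries. Single markers in this sum went both ways. Nkg7 had 6.75, 5.97 and 2.02 FPKM in competent and 12.3, 7.27 and 17.2 FPKM in control libraries. Itgam had 19.0, 23.0 and 20.3 FPKM in competent and 12.8, 12.3 and 3.92 FPKM in control libraries. The part of leukocyte markers in the granzyme values was not tested.

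Kunitz, Kazal and WAP inhibitors had 11 tested of 20 measured and 0 called, with medians of 0.23, 0.04 and -0.19. Slpi, a secreted inhibitor of leukocyte elastase, had 13.6, 44.9 and 61.2 FPKM in arrested, 14.4, 8.60 and 38.6 FPKM in competent and 9.31, 24.3 and 13.3 FPKM in control libraries, which overlapped. Wfdc15b, a WAP-domain gene, differed by 0.72 ± 0.28 (limma adjusted p = 0.417) and Spink8, a Kazal-type gene, by 1.17 ± 0.67 (limma adjusted p = 0.577) for arrested minus competent. Serpins had 18 tested of 27 measured and 0 called, with medians of 0.12, -0.09 and -0.25. Serpinb6a, an intracellular serpin, had 124, 113 and 119 FPKM in arrested libraries, 58.7, 59.7 and 79.5 FPKM in competent libraries and 83.4, 72.3 and 111 FPKM in control libraries. Its arrested libraries lay above all others, with 0.85 ± 0.18 for arrested minus competent (limma adjusted p = 0.250). Serpinb7 differed by -1.28 ± 0.41 for competent minus control (limma adjusted p = 0.880) and Serpinb11 by -0.98 ± 0.47 (limma adjusted p = 0.953).

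Receptors and transducers had medians of 0.01, -0.05 and -0.10 over 18 tested of 23 measured. Substrates of these proteases had 14 tested of 19 measured and 0 called, with medians of -0.13, -0.04 and -0.05. Scnn1a, the α subunit of ENaC, had 2.03, 1.48 and 1.78 FPKM in arrested libraries, 0.565, 0.524 and 1.04 FPKM in competent libraries and 0.863, 0.750 and 1.40 FPKM in control libraries. The arrested libraries lay above all others, with 0.70 ± 0.28 for arrested minus competent (limma adjusted p = 0.421). Scnn1b lay between 0.682 and 13.3 FPKM with overlapping groups, and Scnn1g did not exceed 0.185 FPKM. Hgf, the growth factor that Hgfac and matriptase can activate, was at 0 to 2.82 FPKM and below the filter. Its receptor gene Met had 7.08 to 15.7 FPKM in arrested, 12.4 to 13.9 FPKM in competent and 10.2 to 14.8 FPKM in control libraries, and the desmosomal cadherin gene Dsg2 differed by -0.40 ± 0.16 for arrested minus competent (limma adjusted p = 0.417).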

How the data were processed

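RNA of whole uterus was extracted with RNA STAT-60 and sequenced from TruSeq libraries on an Illumina HiSeq instrument, per the labels' protocols. Bowtie 0.12.2 served for alignment, mm9 as the genome and Cufflinks for transcripts, per the submitters' processing notes; the Cufflinks version is not given in the sources used here. Transcript levels were deposited as FPKM with confidence bounds, and the deposited exon coverage signal is a mean read depth, scaled here to FPKM. The tables of control library 1 have no header line, and its columns were read in the usual order.

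Annotated transcripts numbered 92839 per library, of which 1354 to 1356 were not in GENCODE vM1 on NCBIM37 (the assembly of mm9) and were not used. Gene values were summed with Python 3.11.15 and pandas 2.3.3, without rescaling; median-ratio size factors were 0.942 to 1.05. Low values stand on few reads, and an estimate can fall to 0 when reads are divided among transcripts. The test covered the 13333 genes whose mean over all 9 libraries reached 1 FPKM. It was limma 3.58.1 (R 4.3.3), applied to log2(FPKM + 1) with a mean per group, moderated variances that follow the mean (8.07 degrees of freedom in total) and Benjamini-Hochberg adjustment within each of 3 contrasts. The scale understates changes of low genes. The fit was tested on simulated data.

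Named genes were all members, the called genes and up to 3 of smallest p in each list, genes fixed by name (ENaC subunits, other PAR genes, Slpi, Hgf, Met), leading markers, and the 3 genes most correlated with 4 of the members. Members and lists were chosen with earlier results of these data known. Alternatives changed the gene value, pseudocount, filter, scaling, trend, samples fitted, replicate block and each library in turn. Promoter sequences of Prss28 and Prss29 were taken from RefSeq (GRCm38.p6). F2rl1, Prss8, St14 and Tmprss4 were not matched there.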

Additional observations from a re-analysis of the deposited data

Results flagged for a closer look

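Transcripts that the authors' program assembled at a member, outside the annotation and the gene values, were present in 5 cases in embryo medium libraries and at 0 for the members in the control libraries. An assembled transcript was set to a gene only where it shared splice junctions with that gene alone, so others can be missed. F2rl1 had none in arrested library 2, although its exon coverage there was 11.1 where its FPKM was 9.08. Over all genes, assembled transcripts made up 4.26 to 4.99% of gene FPKM in arrested, 3.52 to 5.27% in competent and 4.92 to 5.69% in control libraries, so control libraries did not hold less of them. Spint1 had 15.1 FPKM of them in arrested library 3 and 3.54 FPKM in arrested library 2. Prss28 had 13.5 FPKM in arrested library 3, Tmprss11d had 2.97 FPKM in competent library 3, where its annotated transcripts were at 0, and Tmprss2 had 6.43 FPKM in competent library 2. With groups of 3 libraries no search for single outlying libraries was made.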

How the results depend on the processing

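Of 381 member differences under settings that left out no single library, 373 kept their direction and side of the threshold. These settings include the fit of only the 2 groups compared. Members past the threshold between arrested and competent were 1 by exon coverage (Tmprss11d) and 0 under the other settings. List genes past it in that comparison were 0 with assembled transcripts added, the transcript of highest mean FPKM, pseudocount 5, no filter, median-ratio scaling, no trend or a replicate block, and 0 to 1 with 1 library left out; for arrested minus control they were 0 to 1. Without arrested library 1 the 1 called was Htra2, a mitochondrial protease gene named after its values were seen. It stood at -4.40 for arrested minus competent (limma adjusted p = 0.00139) and -4.43 for arrested minus control (limma adjusted p = 0.00113). With all libraries these differences were -2.90 and -2.94. Htra2 was listed at 21.4, 0 and 0 FPKM in arrested libraries, so that call rests on values of 0. Its competent and control libraries lay at 15.7 to 27.2 FPKM. With all libraries, arrested minus competent was -1.51 by exon coverage (limma adjusted p = 0.4245). It was -1.77 with assembled transcripts added (limma adjusted p = 0.501). Calls over all genes ranged from 4 to 61 between arrested and competent, 3 to 25 between arrested and control and 0 to 17 between competent and control (18, 7 and 6 as reported).

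Directions turned for arrested minus competent in Tmprss4 (0.028, exon coverage) and Prss29 (0.26, pseudocount 5); for arrested minus control in Prss8 (-0.023, highest transcript), Spint2 (0.015 by exon coverage, 0.0076 by median-ratio and 0.021 by upper-quartile scaling) and Scnn1b (0.075 with assembled transcripts, 0.11 by exon coverage); and for competent minus control in Tmprss11d (-0.56, pseudocount 0.1). With 1 library left out, arrested minus competent ran from -0.42 to 0.033 in St14, -0.52 to 0.34 in Tmprss4, -0.56 to 1.69 in Prss28, -2.23 to 0.79 in Prss29, -0.020 to 0.62 in Spint1, -0.51 to 0.028 in Spint2, -0.031 to 0.67 in F2rl1 and -0.42 to 0.10 in Met. Arrested minus control ran from -0.19 to 0.22 in Prss8, -0.34 to 0.11 in St14, -0.33 to 0.53 in Tmprss4, -0.083 to 2.17 in Prss28, -1.30 to 1.72 in Prss29, -0.21 to 0.43 in Spint1, -0.34 to 0.20 in Spint2 and -1.32 to 0.23 in Scnn1b. Competent minus control ran from -0.31 to 0.74 in Tmprss11d and -0.010 to 0.12 in F2rl1. The cause was not tested.

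A minimum mean of 5 FPKM leaves no value for Tmprss11d and Prss28. Group mean levels of the members, taken by another gene value, moved by more than the SD of the group in 20 cases. In 70 cases they did not. Libraries of the same number deviated with r of -0.05 to 0.10, and libraries of unlike number with r of -0.09 to 0.08. With 3 libraries per group these values cannot decide whether libraries of the same number were paired. With the replicate block 4, 5 and 1 genes and 0 members were called.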
